A study of Mus musculus with 15 samples.

Results

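To describe how macrophages handle the genes that recognise lipopolysaccharide (LPS) and pass its signal on, 10 genes were taken by name from RNA sequencing of mouse bone marrow-derived macrophages (BMDMs), namely *Cd14*, *Ly96*, *Myd88*, *Tirap*, *Ticam1*, *Ticam2*, *Irak1*, *Irak2*, *Irak4* and *Map3k7*. All 10 were found among the 20089 genes listed, and all 10 were among the 11743 genes tested. BMDMs came from the marrow of wild-type C57BL/6 mice and had received M-CSF, the growth factor that macrophages need, for 3 days according to the series description. The 15 samples formed 5 groups of 3. Control cells had M-CSF and neither stimulus, LPS cells were given bacterial LPS for 4 h or 3 days, and RANKL cells were given receptor activator of NF-κB ligand, the cytokine that turns macrophages into osteoclasts, for 4 h or 3 days. No group held M-CSF alone for the 3 days of the long stimuli, so the effect of a long stimulus and that of the extra time in culture cannot be told apart. The labels do not give the age of the mice and do not say whether samples of a group came from separate animals, so p-values measure the spread between these samples only.

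LPS is a glycolipid of the outer membrane of Gram-negative bacteria. CD14 takes it up at the cell surface and hands it to MD-2, the product of *Ly96*, which sits on Toll-like receptor 4 (TLR4) and forms the binding pocket. The receptor then uses a pair of adaptor branches. At the plasma membrane TIRAP (also called MAL) bridges it to MyD88, which gathers the kinases IRAK4, IRAK1 and IRAK2 into the Myddosome, and TRAF6 and the kinase TAK1 (*Map3k7*) carry the signal to NF-κB and the MAP kinases. From endosomes TRAM (*Ticam2*) bridges the receptor to TRIF (*Ticam1*), which leads to type I interferon. TAK1 and TRAF6 also act below RANK, the receptor for RANKL, in osteoclast precursors.

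The promoters of 4 of these genes are shown because the genes behaved differently in the samples. *Myd88* and *Irak2* were highest at LPS 4 h, *Irak4* was lowest there, and *Map3k7* differed least from control among the kinase genes at that time. The sequences are those of RefSeq on GRCm38.p6 and run 5′ to 3′ on the strand of the gene, from 250 bases before the start site to 50 bases after it. Capitals mark matches on either strand to the motifs searched, which were the NF-κB site by its consensus, the AP-1 site TGANTCA, the interferon response core GAAANNGAA, the gamma-activated site (GAS) TTCNNNGAA and the GC box GGGCGG.
Myd88: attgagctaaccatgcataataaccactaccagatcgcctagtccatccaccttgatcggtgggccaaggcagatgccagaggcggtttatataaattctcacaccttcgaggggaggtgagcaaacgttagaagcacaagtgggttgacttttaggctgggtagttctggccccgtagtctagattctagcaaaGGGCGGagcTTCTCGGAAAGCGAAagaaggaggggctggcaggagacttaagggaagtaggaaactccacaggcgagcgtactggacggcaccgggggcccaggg
Irak2: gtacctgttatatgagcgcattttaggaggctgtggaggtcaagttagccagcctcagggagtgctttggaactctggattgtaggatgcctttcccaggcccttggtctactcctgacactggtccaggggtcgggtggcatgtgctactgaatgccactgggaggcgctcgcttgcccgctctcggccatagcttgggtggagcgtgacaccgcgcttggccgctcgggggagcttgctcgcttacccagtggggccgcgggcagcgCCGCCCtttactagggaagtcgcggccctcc
Irak4: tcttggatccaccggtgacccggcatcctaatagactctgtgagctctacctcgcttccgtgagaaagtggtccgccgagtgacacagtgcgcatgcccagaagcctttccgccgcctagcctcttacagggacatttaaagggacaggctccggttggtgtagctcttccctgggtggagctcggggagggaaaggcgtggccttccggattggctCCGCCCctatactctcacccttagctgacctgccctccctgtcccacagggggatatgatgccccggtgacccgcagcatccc
Map3k7: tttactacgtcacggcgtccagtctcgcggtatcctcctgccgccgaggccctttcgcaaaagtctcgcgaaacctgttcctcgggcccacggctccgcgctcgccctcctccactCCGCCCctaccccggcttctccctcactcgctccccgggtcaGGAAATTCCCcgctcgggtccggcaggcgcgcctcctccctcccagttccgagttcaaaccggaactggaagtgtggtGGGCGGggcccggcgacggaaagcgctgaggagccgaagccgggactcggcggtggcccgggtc
These windows lie at chr9:119339969-119340268 on the minus strand for *Myd88*, and on the plus strand at chr6:113638217-113638516 for *Irak2*, chr15:94543410-94543709 for *Irak4* and chr4:31963857-31964156 for *Map3k7*. RefSeq windows of 7 of the 10 genes were searched, and none of *Cd14*, *Ly96* or *Ticam2*. The interferon response core occurred in the *Myd88* window, starting at position -40 from the start site, and overlapped a GAS at -46. Among the 7 genes no other window held either motif, against 8.57% and 8.47% of the 27025 promoters in the table. The NF-κB consensus occurred in 1 of the 7 genes, *Map3k7*, at -92 (5.55% of all promoters). The AP-1 site occurred in 0 of 7 (7.93%) and the GC box in 7 of 7 (35.9%). These matches describe the letters of the windows and not binding.

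Levels are given as FPKM, fragments scaled to the length of the transcript and to the depth of the sample, so that they can be compared between genes. The fragments behind the values were recovered, and numbered 18306184 to 20330207 per sample over the listed genes. The 10 genes had 180 to 33318 fragments in a sample, so counting error was at most 7.45% of a value. Among the markers checked, *Cd68* ranged from 1087 to 1566 FPKM over the 15 samples, all 9 osteoclast markers rose in RANKL 3 d, and all 8 LPS response markers rose in LPS 4 h. Not all macrophage markers were as steady as *Cd68*. Of the 7, 1 was higher and 1 lower than control in LPS 3 d, and likewise in RANKL 3 d. Mean *Fcgr1* was 298 FPKM in control and 51.4 at RANKL 3 d. Mean *Adgre1* was 247 FPKM in control and 670 at LPS 3 d. Markers of other cells were present too. The 8 neutrophil markers summed to 7404 to 22830 FPKM in control samples, and all 8 fell in LPS 3 d, to 149 to 1777. Replicate 3 of LPS 3 d stood apart from the others of its group, with the highest sum of the 7 macrophage markers (17150 against a lowest of 5797 FPKM) and of the neutrophil and stromal markers. *Lyz2* made up most of these macrophage sums, at 13800 and 3712 FPKM. In that replicate *Adgre1* was also high (1102 against 356 and 551 FPKM), but *Cd68* differed little (1282 against 1145 and 1159). Comparisons with LPS 3 d are therefore mostly given with and without this replicate.

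In control cells *Myd88* was the most abundant of the 10 genes, at 57.9 ± 6.86 FPKM (SD, n = 3), above 90.5% of the tested genes. *Cd14* followed at 39.2 ± 5.26, *Irak1* at 30.2 ± 3.47 and *Ly96* at 24.9 ± 4.52 FPKM. *Irak4*, *Irak2* and *Ticam1* lay close together, *Irak2* at 14.9 and *Ticam1* at 14.5 FPKM. *Map3k7* stood at 9.93, *Ticam2* at 7.26 and *Tirap*, the sorting adaptor, at 5.82 FPKM, the lowest mean of the 10 in each of the 5 groups, though next to *Irak4* at LPS 4 h (7.04 and 7.12 FPKM). The MyD88 branch thus paired the most abundant adaptor transcript of the 4 with the least abundant. After 4 h of LPS the order of the first 3 became *Cd14*, *Myd88* and *Irak2*.

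**Figure D1:**
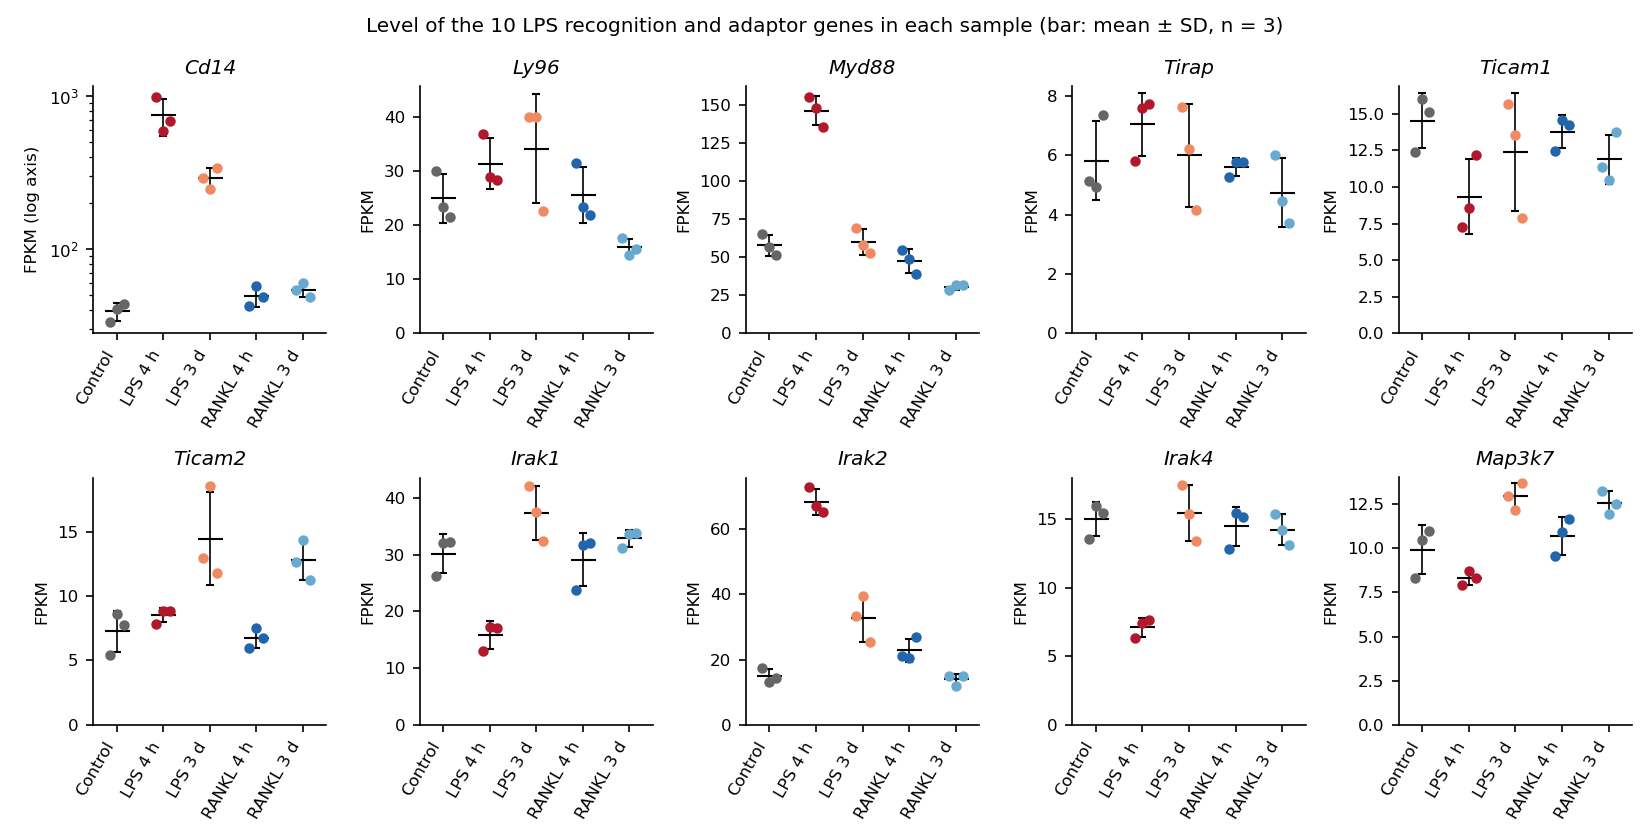
FPKM of the 10 genes in each of the 15 samples, coloured by group, with the group mean ± SD (n = 3) as a bar. *Cd14* has a log axis and the other genes linear axes from 0. *Cd14*, *Myd88* and *Irak2* were highest at LPS 4 h, where *Irak1* and *Irak4* were lowest.

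Then, the first question was how the 10 genes stood after 4 h of LPS. Changed genes were those with an unadjusted p under 0.05 in limma and a fold change over 1.5 or under 0.66, the thresholds of the study, and p adjusted over all tested genes is given beside. *Cd14*, *Irak2* and *Myd88* rose and *Irak4*, *Irak1* and *Ticam1* fell, so that 6 of the 10 changed. Of all tested genes 49.8% changed in this comparison, 8.75% upwards and 41.0% downwards, and their median log2 fold change was -0.52, against 0.27 for the 10 genes. The 10 genes therefore changed about as often as genes in general. Centring every sample on its median gene took the downward shift away, and over all genes 2049 rose and 1675 fell in place of 1028 and 4818.

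*Cd14*, the receptor that hands LPS over, measured 33.4, 40.5 and 43.7 FPKM in the control samples and 978, 585 and 689 FPKM at LPS 4 h. The groups were far apart, and the means differed 19.1-fold. The log2 fold change was 4.23 ± 0.19 (SE; limma, adjusted p = 2.23e-09). *Cd14* was then above 99.3% of the tested genes. *Ly96*, its partner on the receptor, went from 30.0, 23.4 and 21.4 to 36.8, 28.9 and 28.3 FPKM. The groups overlapped, and the log2 fold change was 0.33 ± 0.22 (limma, adjusted p = 0.20). Under centring *Ly96* passed the thresholds, with a log2 fold change of 0.90.

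The adaptors differed in direction. *Myd88* measured 65.2, 57.0 and 51.6 FPKM in control and 155, 148 and 136 at LPS 4 h. All LPS samples lay far above control, 2.53-fold by the means, with a log2 fold change of 1.34 ± 0.14 (limma, adjusted p = 3.57e-06). *Ticam1*, the adaptor of the interferon branch, measured 12.4, 16.0 and 15.2 FPKM in control and 7.24, 8.60 and 12.2 at LPS 4 h. Its highest LPS sample came just below the lowest control sample, and the log2 fold change was -0.66 ± 0.24 (limma, adjusted p = 0.027). Centred on the median gene the difference was -0.09 and not called, and without Control replicate 2 or LPS 4 h replicate 1 it was -0.58 or -0.49 and not called. The bridging adaptors *Tirap* and *Ticam2* were not called, at 0.28 ± 0.23 and 0.25 ± 0.19 (limma, adjusted p = 0.31 and 0.27), but under centring both were called higher, at 0.85 and 0.82.

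The 3 IRAK kinase genes split. *Irak2*, whose product sustains signalling in the Myddosome, measured 17.3, 13.0 and 14.3 FPKM in control and 72.9, 67.1 and 65.2 at LPS 4 h. It rose in every sample, 4.6-fold by the means, with a log2 fold change of 2.20 ± 0.17 (limma, adjusted p = 2.60e-07). *Irak4*, the first kinase of the complex, measured 13.6, 16.0 and 15.4 FPKM in control and 6.32, 7.41 and 7.63 at LPS 4 h. Every LPS sample lay below every control sample, and the log2 fold change was -1.07 ± 0.13 (limma, adjusted p = 1.55e-05). *Irak1* went in the same way from 26.2, 32.2 and 32.2 to 13.0, 17.3 and 17.1 FPKM, a log2 fold change of -0.93 ± 0.15 (limma, adjusted p = 0.00016). Relative to the median gene *Irak4* and *Irak1* were still lower, by log2 values of -0.50 and -0.37, which no longer passed the fold threshold. *Map3k7* measured 8.34, 10.5 and 10.96 FPKM in control and 7.94, 8.72 and 8.33 at LPS 4 h, and was not called (log2 fold change -0.24 ± 0.12; limma, adjusted p = 0.11). The groups of *Map3k7* overlapped.

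**Figure D2:**
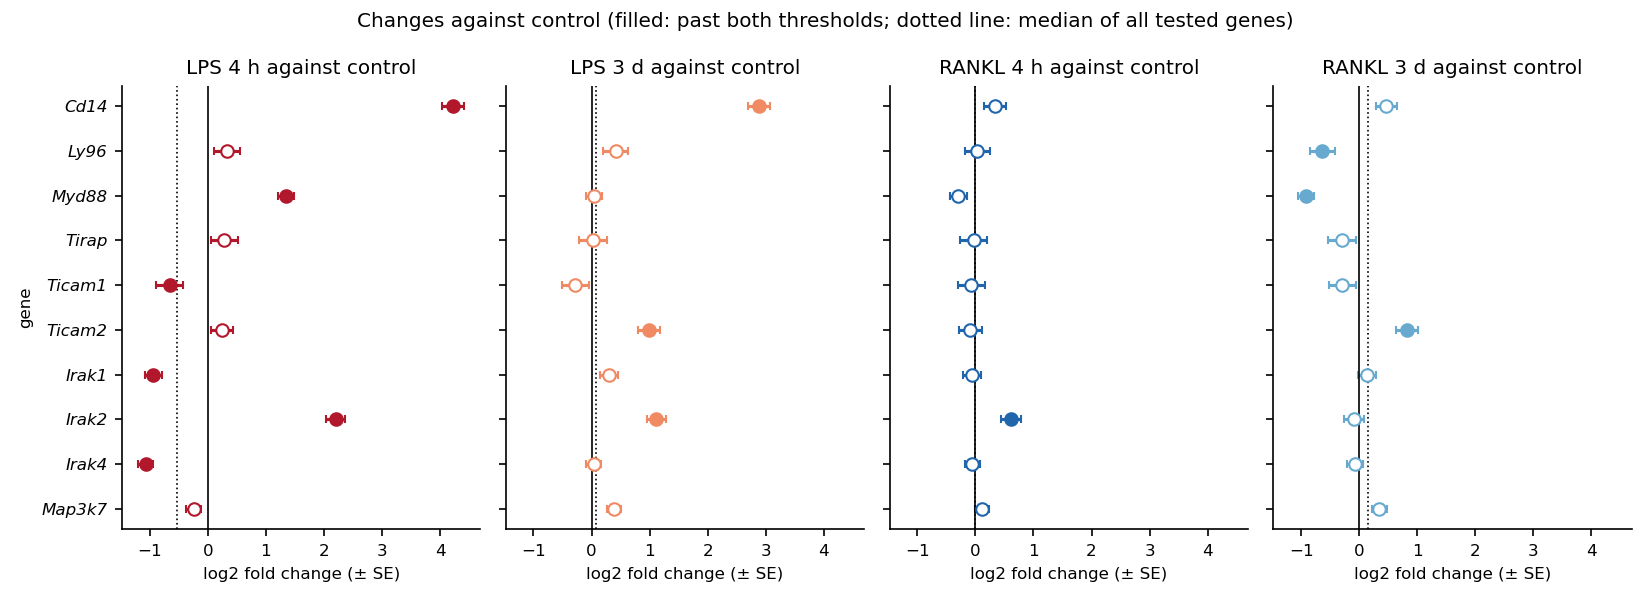
Log2 fold change ± SE of the 10 genes against control in LPS 4 h, LPS 3 d, RANKL 4 h and RANKL 3 d, from the limma fit. Filled points passed both thresholds, and the dotted line is the median of all tested genes, which lay at -0.52 in LPS 4 h. *Irak4*, *Irak1* and *Ticam1* fell there, but not past the thresholds with samples centred on the median gene.

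To compare members without any dependence on how samples were scaled, ratios of genes were taken within each sample. The pairs were chosen after the levels were seen. *Irak2* was 0.66, 0.40 and 0.44 times as abundant as *Irak1* in the control samples and 5.61, 3.88 and 3.82 times at LPS 4 h. The kinase that was the less abundant in every control sample was thus the more abundant in every LPS 4 h sample, a log2 difference of 3.15. The ratio of *Irak4* to *Irak1*, by contrast, was 0.499 ± 0.020 in control and 0.454 ± 0.030 at LPS 4 h (SD, n = 3), with overlapping groups. At LPS 3 d it was 0.413 ± 0.0025, below every control sample. Of the 45 pairs of the 10 genes, *Irak1* and *Irak4* had the most similar pattern over the 15 samples, with a root-mean-square difference of 0.14 on the log2 scale after each gene was centred on its own mean. Genes outside the 10 were closer to each, such as *Rbsn* to *Irak1* (0.08) and *Preb* to *Irak4* (0.10).

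*Myd88* was 4.80, 3.57 and 3.34 times as abundant as *Irak4* in control and 24.6, 20.01 and 17.9 times at LPS 4 h. *Cd14* was 1.11, 1.73 and 2.05 times as abundant as *Ly96* in control and 26.6, 20.3 and 24.4 times at LPS 4 h. Both ratios were higher in every LPS 4 h sample. For *Ticam2* to *Ticam1* the ratio was 0.495 ± 0.050 in control, 0.948 ± 0.195 at LPS 4 h, 1.23 ± 0.356 at LPS 3 d and 1.10 ± 0.273 at RANKL 3 d. The bridging adaptor was the less abundant of this pair in all control samples, and neither long stimulus overlapped control. In each of these comparisons whose groups did not overlap, the two-sided exact permutation test of 3 samples against 3 gave p = 0.1, the smallest it can give (adjusted p = 0.14 over the 64 tests of 8 ratios in 8 comparisons). Ratios to *Tlr4* itself ran likewise. *Cd14* was 1.94 ± 0.23 times as abundant as *Tlr4* in control and 85.6 ± 28.4 times at LPS 4 h, and *Ly96* 1.26 ± 0.36 and 3.58 ± 0.84 times.

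**Figure D3:**
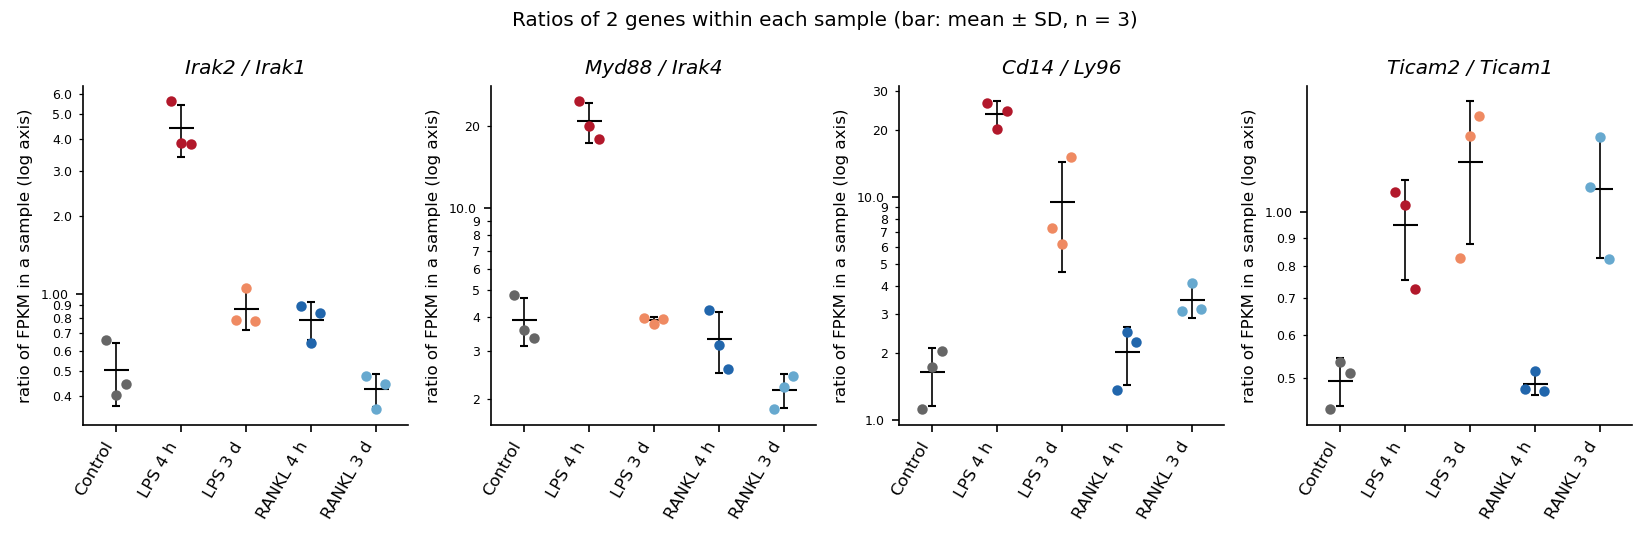
Ratio of the FPKM of 2 genes within each sample, on log axes, for the 5 groups, with the group mean ± SD (n = 3) as a bar. *Irak2* to *Irak1* was 0.40 to 0.66 in control and 3.82 to 5.61 at LPS 4 h, and *Ticam2* to *Ticam1* was higher in every LPS 3 d and RANKL 3 d sample than in control.

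After 3 days of LPS, *Cd14*, *Irak2* and *Ticam2* were higher than in control, and none of the 10 genes was lower. These 3 of 10 compare with 31.0% of all tested genes, 14.9% higher and 16.1% lower, and the median log2 fold change was 0.35 for the 10 genes and 0.08 over all genes. *Cd14* measured 289, 247 and 340.4 FPKM, 7.44-fold above control by the means, with a log2 fold change of 2.89 ± 0.19 (limma, adjusted p = 6.57e-07). *Irak2* measured 33.3, 39.5 and 25.3 FPKM, a log2 fold change of 1.12 ± 0.17 (limma, adjusted p = 0.00025). Each of these samples lay above all control samples. *Ticam2*, which had not been called at 4 h, measured 13.0, 18.6 and 11.8 FPKM against 5.45, 8.58 and 7.75 in control, a log2 fold change of 0.98 ± 0.19 (limma, adjusted p = 0.0015). Without LPS 3 d replicate 3 these log2 fold changes were 2.77, 1.29 and 1.11, all past the thresholds.

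*Ly96* measured 39.9, 40.0 and 22.5 FPKM at LPS 3 d, so that the replicate that stood apart lay within the control range and the others above it. It was not called with all samples (log2 fold change 0.42 ± 0.22; limma, adjusted p = 0.15), and was called at 0.69 without that library. *Myd88*, at 69.5, 58.0 and 52.7 FPKM, overlapped control, and so did *Irak4* at 17.5, 15.4 and 13.4 FPKM. Their log2 fold changes against control were 0.05 ± 0.14 and 0.04 ± 0.13, and 0.14 and 0.13 without replicate 3. *Irak1*, at 42.1, 37.5 and 32.4 FPKM, and *Map3k7*, at 13.0, 12.2 and 13.7 FPKM, lay above all control samples by less than the fold threshold, also without replicate 3 (0.40 and 0.35). In bulk RNA a change in the mix of cells and a change of RNA per cell cannot be told apart, and in LPS 3 d the 8 neutrophil markers, all 4 basophil or mast cell markers and all 4 B cell markers listed were lower than in control. So were 3 of 4 dendritic cell markers (summed 2.32 to 4.88 against 13.6 to 29.5 FPKM). The neutrophil markers had far larger sums, 149 to 1777 against 7404 to 22830 FPKM. The part of these cells in these values was not tested.

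The difference between the times was tested directly. From LPS 4 h to LPS 3 d, *Cd14*, *Myd88* and *Irak2* were lower at the later time and *Irak1*, *Irak4*, *Ticam2* and *Map3k7* higher, 7 of 10 where 59.3% of all genes were called, 45.0% higher and 14.3% lower. The log2 differences were -1.34 ± 0.19 for *Cd14*, -1.29 ± 0.14 for *Myd88* and -1.09 ± 0.17 for *Irak2* (limma, adjusted p = 2.95e-05, 3.17e-06 and 7.33e-05). *Cd14* at 3 days was thus between its control and its 4 h level in every sample, and *Irak2* likewise, whereas *Myd88* overlapped its control level. The rises were 1.24 ± 0.15 for *Irak1*, 1.10 ± 0.13 for *Irak4*, 0.73 ± 0.19 for *Ticam2* and 0.63 ± 0.12 for *Map3k7* (limma, adjusted p = 9.73e-06, 7.14e-06, 0.0039 and 0.00048). The median gene rose by 0.52 in this comparison. With samples centred on it, *Irak4* (0.45) and *Ticam2* (0.08) were no longer called, *Map3k7* turned to -0.017, *Tirap* was called lower (-0.91), and the calls of *Cd14*, *Myd88*, *Irak2* and *Irak1* held. Without LPS 3 d replicate 3 all 7 calls held, with log2 differences of -1.46 for *Cd14*, -1.20 for *Myd88*, -0.91 for *Irak2*, 1.34 for *Irak1*, 1.20 for *Irak4*, 0.86 for *Ticam2* and 0.59 for *Map3k7*. *Ticam2* was lost without LPS 3 d replicate 2 (0.54), and *Ticam1* was called higher without LPS 3 d replicate 3 (0.67) or LPS 4 h replicate 3 (0.59).

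Next, RANKL was compared with control at the same times. At 4 h 1 of the 10 genes passed the thresholds, against 2.56% of all genes, 1.21% higher and 1.35% lower, and 0 passed with the adjusted p, against 0.119%. This was *Irak2*, which measured 21.2, 20.4 and 26.8 FPKM against 17.3, 13.0 and 14.3 in control. All 3 RANKL samples lay above control, with a log2 fold change of 0.61 ± 0.17, but the adjusted p in limma was 0.33 and the two-sided exact permutation p was 0.1. Without Control replicate 2 or RANKL 4 h replicate 3 the log2 fold change was 0.52 or 0.49 and not called. The other 9 genes had log2 fold changes between -0.29 (*Myd88*) and 0.34 (*Cd14*), with groups that overlapped.

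At RANKL 3 d the picture was another, with 3 of 10 genes called, 1 higher and 2 lower, where 29.2% of all genes were, 20.2% higher and 9.04% lower. *Ticam2* measured 12.7, 14.4 and 11.3 FPKM, all above control, a log2 fold change of 0.83 ± 0.19 (limma, adjusted p = 0.0057). *Myd88* measured 28.2, 31.4 and 32.0 FPKM, all below the control samples, a log2 fold change of -0.92 ± 0.14 (limma, adjusted p = 0.00038). *Ly96* measured 17.6, 14.6 and 15.5 FPKM, also below all control samples, a log2 fold change of -0.64 ± 0.22 (limma, adjusted p = 0.040). The *Myd88* and *Ticam2* calls held under all alternatives tried, whereas that of *Ly96* was lost without Control replicate 1 (-0.50) or RANKL 3 d replicate 2 (-0.58) and with FPKM rescaled to equal sums (-0.52). *Cd14*, at 54.0, 59.8 and 48.8 FPKM, lay above all control samples, with a log2 fold change of 0.47 ± 0.19 that did not pass the fold threshold but did at equal sums (0.59). *Irak1*, *Irak2* and *Irak4* had log2 fold changes of 0.13, -0.09 and -0.07 with overlapping groups. In these samples 5 of 7 stromal markers were higher than in control (summed 386 to 1811 against 138 to 305 FPKM), and 4 of 8 neutrophil markers, 4 of 4 basophil or mast cell markers and 3 of 4 B cell markers and 1 of 4 dendritic cell markers were lower. Their part in the results was not tested.

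Between RANKL 4 h and RANKL 3 d 4 of 10 genes differed, where 28.3% of all genes did, 20.1% higher and 8.24% lower. *Ticam2* was higher at 3 days, by 0.91 ± 0.19 on the log2 scale (limma, adjusted p = 0.0033). *Irak2*, *Ly96* and *Myd88* were lower, with log2 differences of -0.70 ± 0.17, -0.67 ± 0.22 and -0.62 ± 0.14 (limma, adjusted p = 0.0076, 0.033 and 0.0050). At 3 days *Irak2* overlapped its control range again. At equal FPKM sums these 3 were -0.58, -0.55 and -0.51 and no longer called, and each also depended on single libraries. The call was lost without RANKL 4 h replicate 1 for *Ly96* (-0.51) and *Myd88* (-0.52), for *Myd88* also without RANKL 4 h replicate 2 (-0.60) or RANKL 3 d replicate 1 (-0.57), and for *Irak2* without RANKL 4 h replicate 3 (-0.58) or RANKL 3 d replicate 2 (-0.60).

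RANKL and LPS were also set against each other directly. At 4 h 6 of 10 genes differed, where 51.8% of all genes did, 42.5% higher and 9.31% lower with RANKL. *Cd14*, *Myd88* and *Irak2* were lower with RANKL than with LPS, by log2 differences of -3.89 ± 0.19, -1.64 ± 0.14 and -1.59 ± 0.17 (limma, adjusted p = 5.11e-09, 5.61e-07 and 4.05e-06). *Irak4*, *Irak1* and *Ticam1* were higher, by 1.01 ± 0.13, 0.88 ± 0.15 and 0.59 ± 0.24 (limma, adjusted p = 2.16e-05, 0.00025 and 0.044), but none of these 3 was called with samples centred on the median gene, at 0.45, 0.31 and 0.02. *Ticam1* was further lost with a pseudocount of 1 (0.54) and without LPS 4 h replicate 1 (0.42) or 2 (0.54) or RANKL 4 h replicate 2 (0.54) or 3 (0.56). *Ly96*, *Tirap* and *Ticam2* were called lower with RANKL under centring only, at -0.87, -0.88 and -0.90.

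At 3 days 4 of 10 genes were lower with RANKL than with LPS and 0 were higher, against 38.9% of all genes called, 25.1% higher and 13.8% lower. *Cd14* differed by -2.42 ± 0.19, *Irak2* by -1.21 ± 0.17, *Ly96* by -1.06 ± 0.22 and *Myd88* by -0.97 ± 0.14 on the log2 scale (limma, adjusted p = 7.13e-07, 7.02e-05, 0.0014 and 9.21e-05). The RANKL samples of *Ly96*, at 14.6 to 17.6 FPKM, lay below even the LPS library that stood apart, at 22.5. Without LPS 3 d replicate 3 the differences were -2.30, -1.38, -1.33 and -1.06. *Ticam2*, which was above control with either long stimulus, differed by -0.16 ± 0.19 between them (limma, adjusted p = 0.53), or -0.29 without that library, and its groups overlapped. That p does not show the levels to be equal.

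Across the 5 groups the genes could then be ordered by how far they ranged. Group means of *Cd14* spanned 4.23 log2 units, those of *Irak2* 2.29, of *Myd88* 2.26, of *Irak1* 1.24, of *Irak4* 1.10, of *Ticam2* 1.07 and of *Ly96* 1.06. *Ticam1*, *Map3k7* and *Tirap* stayed within 0.66, 0.63 and 0.58. For *Tirap* no neighbouring groups in the order of means were apart in their samples, the highest mean being 7.04 FPKM at LPS 4 h and the lowest 4.73 at RANKL 3 d, and no comparison called it with the FPKM as deposited. For *Irak1* and *Irak4* LPS 4 h was the only group apart from its neighbour in the order. For *Map3k7* the long stimuli, at 13.0 ± 0.76 and 12.6 ± 0.65 FPKM, lay apart from the other 3 groups, which overlapped their neighbours between 7.94 and 11.7 FPKM.

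For each gene whose group means spanned at least 1 log2 unit, the genes with the most similar pattern over the 15 samples were sought by the same root-mean-square difference of centred log2 values. Nearest to *Cd14* were *Dusp16* (0.38), a MAP kinase phosphatase, and *Sod2* (0.47), mitochondrial superoxide dismutase. *Dusp16* had means of 2.94 FPKM in control, 36.6 at LPS 4 h and 15.2 at LPS 3 d, and *Sod2* 26.0, 284 and 164. Nearest to *Myd88* was *Rnf31* (0.13), which encodes the catalytic subunit of the linear ubiquitin ligase, with 22.4 FPKM in control, 52.4 at LPS 4 h and 12.8 at RANKL 3 d, followed by *Katna1* (0.21). Nearest to *Irak2* were *Rhbdf2* (0.26), which encodes a rhomboid-like protein needed for shedding of TNF, and *Car13* (0.29), a carbonic anhydrase. *Rhbdf2* went from 23.5 FPKM in control to 99.7 at LPS 4 h and 39.7 at LPS 3 d, as *Irak2* was highest at LPS 4 h and intermediate at LPS 3 d.

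The genes nearest to *Irak1* were *Rbsn* (0.08) and *Med25* (0.09), and to *Irak4* *Preb* and *Aldh3a2* (both 0.10). All of these were lowest at LPS 4 h, *Preb* for example with 7.93 FPKM against 18.0 in control. Nearest to *Ticam2* were *Fam126b* (0.25) and *Ahctf1* (0.26), and to *Ly96* *Cry1* (0.15), a circadian repressor, and *Fbxo6* (0.16). These are likenesses over 15 samples that share their groups and libraries, and carry no test.

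Turning to the rest of the pathway, 12 genes of the TLR4 complex and of LPS handling, 20 signalling genes below the adaptors and 14 inhibitors of Toll-like receptor signalling were counted in the same fit, the inhibitors without *Sarm1*, which was below the lowest mean tested. At LPS 4 h 1 of the 12 complex genes rose and 3 fell, where 8.75% of all tested genes rose and 41.0% fell. *Tlr4* itself measured 18.0, 22.9 and 19.8 FPKM in control and 8.26, 8.28 and 10.2 at LPS 4 h, all below control, a log2 fold change of -1.18 ± 0.14 (limma, adjusted p = 1.52e-05). *Cnpy3*, which helps fold Toll-like receptors, fell by 1.22 on the log2 scale, from 47.8 to 20.5 FPKM (limma, adjusted p = 3.73e-06), *Cd180* fell by 0.93 and *Cd44* rose by 1.31 (limma, adjusted p = 6.27e-05 and 1.89e-06). The list's median of -0.55 was close to that of all genes. Under centring 3 of the 12 rose and 2 fell, where 2049 of the 11743 tested genes rose and 1675 fell.

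Of the 20 signalling genes 6 rose and 4 fell at LPS 4 h, where 8.75% of all tested genes rose and 41.0% fell. Under centring 9 of the 20 rose and 2 fell, where 2049 of the 11743 tested genes rose and 1675 fell. *Peli1*, a ubiquitin ligase that acts on IRAK kinases, went from 11.4 ± 1.82 to 105 ± 7.52 FPKM, a log2 fold change of 3.21 ± 0.13, *Map3k8* (TPL2) rose by 2.44 and *Ikbke* by 1.69 (limma, adjusted p = 1.38e-09, 4.18e-07 and 3.73e-06). Of the 13 inhibitors tested 5 rose and 1, *Sigirr*, fell, and under centring 8 rose and 1 fell. *Sigirr* was low, with a mean below 1 FPKM over the 15 samples. *Socs1* went from 14.4 ± 11.2 to 242 ± 60.4 FPKM, *Tnfaip3* (A20) from 18.9 ± 1.40 to 335 ± 30.8 and *Tnip1* from 29.0 ± 2.96 to 213 ± 1.47, log2 fold changes of 4.30, 4.14 and 2.88 (limma, adjusted p = 4.22e-05, 1.49e-09 and 4.44e-10). The list medians were -0.03 for the signalling genes and 0.30 for the inhibitors, beside -0.52 over all genes.

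At LPS 3 d the list medians were -0.38 for the complex genes, 0.28 for the signalling genes and 0.26 for the inhibitors, beside 0.08 over all genes, of which 14.9% rose and 16.1% fell. The inhibitor *Irak3* (IRAK-M), the family member that lacks kinase activity and restrains the Myddosome, stood at 45.8, 52.3 and 75.2 FPKM against 9.32, 9.42 and 10.9 in control. Every sample lay far above control, with a log2 fold change of 2.51 ± 0.17 (limma, adjusted p = 8.60e-07), or 2.30 without replicate 3. *Tnip1* was also higher (1.19), and *Sigirr* and *Il1rl1* were lower, so 2 of 13 inhibitors rose and 2 fell. Both genes that fell averaged below 1 FPKM over the 15 samples, and with the filter at that mean 2 inhibitors rose and 0 fell. With the adjusted p 1 of them fell, since *Il1rl1* had an adjusted p of 0.080 in limma. Without LPS 3 d replicate 3 the inhibitors had 5 rises and 2 falls, with *Rnf216* (0.76), *Tollip* (0.63) and *Tnfaip3* (0.60) called higher as well. Of the complex genes 1 rose and 5 fell, 4 of them also with the adjusted p (*Ly86* had 0.061 in limma). *Lbp*, which loads LPS onto CD14, measured 0.61, 0.73 and 2.90 FPKM against 13.2, 7.23 and 9.03 in control, the highest of the LPS samples being the replicate that stood apart. Its log2 fold change was -2.99 ± 0.47 with all samples and -3.64 ± 0.36 without that replicate (limma, adjusted p = 0.00034 and 1.07e-05). *Cd180* stood at 106 ± 9.86 against 244 ± 8.82 FPKM, a log2 fold change of -1.21, or -1.13 without it. Of the signalling genes 4 rose and 1, *Tab1*, fell (-0.74). *Traf3*, which acts with TRIF, rose by 0.68 on the log2 scale (limma, adjusted p = 0.0043). Without replicate 3 the counts were 1 and 4 for the complex genes, where *Rftn1* (-0.46) was lost, and 6 and 1 for the signalling genes, where *Ikbke* (0.51) was lost and *Traf6* (0.71), *Tab3* (0.77) and *Tbk1* (0.61) were called.

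With RANKL for 4 h, 1 of 12 complex genes, 2 of 20 signalling genes and 0 of 13 inhibitors were called by limma, where 2.56% of all genes were, and with the adjusted p none was. The list medians were -0.09, 0.02 and -0.05. These counts rested on single libraries. The complex count was 0 without Control replicate 2 or RANKL 4 h replicate 3, the signalling count was 1 without either of these or Control replicate 1, and the inhibitor count was 1 without Control replicate 1 or RANKL 4 h replicate 2 and 2 without RANKL 4 h replicate 1. With the replicate block 1 inhibitor, *Socs1*, was called lower. It was lower with RANKL in every same-numbered pair, at 15.6, 5.56 and 2.69 FPKM against 27.3, 8.51 and 7.39, a log2 fold change of -0.95 ± 0.40 with an adjusted p of 0.71 in limma with the block. *Tlr4* was the complex gene, at 13.4, 15.2 and 10.8 FPKM, below all control samples (log2 fold change -0.63 ± 0.14; limma, adjusted p = 0.17). With RANKL for 3 d, 0 complex genes rose and 5 fell, where 9.04% of all genes fell, and the list's median was -0.51 beside 0.16 over all genes. *Cd180* fell by 1.47, *Cd36*, a scavenger receptor, by 1.40 and *Lbp* by 1.71 on the log2 scale (limma, adjusted p = 8.01e-06, 0.0018 and 0.015), and *Ly86*, the partner of *Cd180*, and *Msr1* fell too. Of the signalling genes 3 rose and 3 fell, where 20.2% of all genes rose, with a list median of 0.07. *Traf3* rose by 1.06 and *Traf6*, which acts below both TLR4 and RANK, by 0.65 (limma, adjusted p = 0.00031 and 0.027), while *Map3k8*, *Pik3ap1* and *Ikbke* fell. The third riser, *Map2k6*, was named after its values were seen and was low throughout, with means of 0.33 FPKM in control and 1.58 at RANKL 3 d. Of the inhibitors 1 rose, *Cyld* (0.70), and 3 fell, among them *Socs1* (-2.30), with a list median of 0.09, and without RANKL 3 d replicate 3 the count was 1 and 1. *Irak3* was at 8.21 ± 0.49 FPKM, and differed from LPS 3 d by -2.77 ± 0.17 (limma, adjusted p = 1.25e-07), or -2.56 without LPS 3 d replicate 3.

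**Figure D4:**
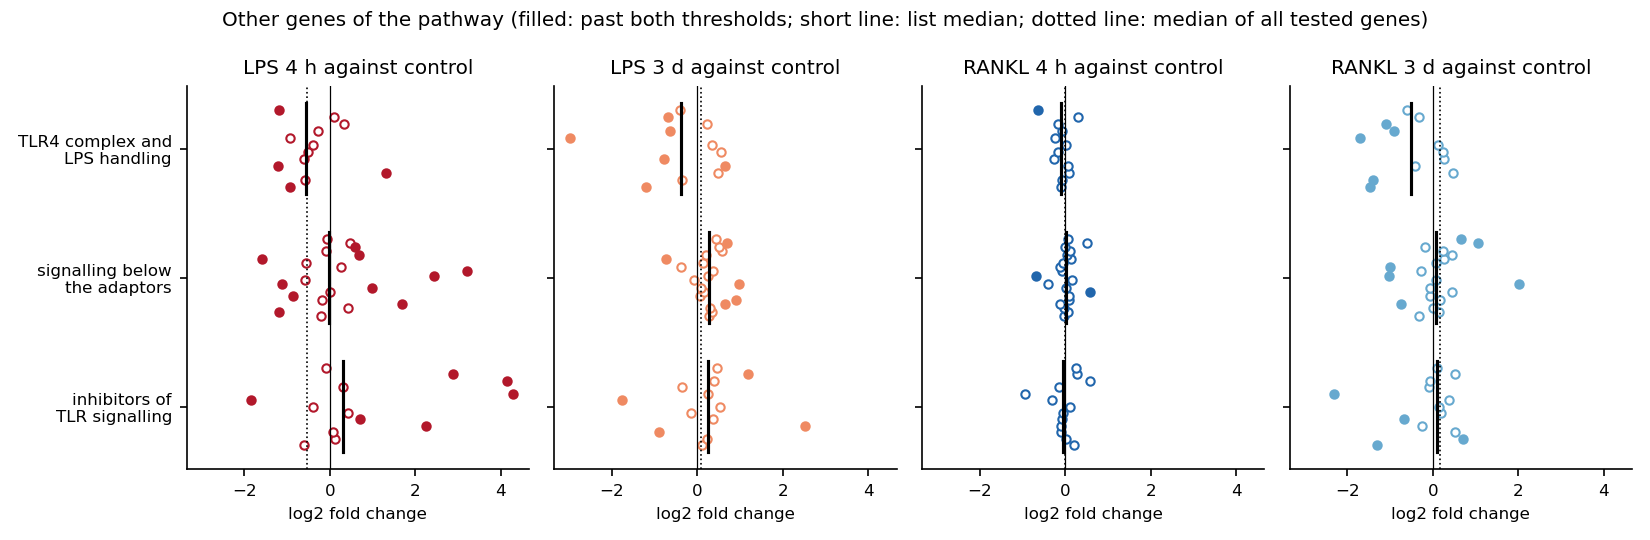
Log2 fold change against control of each tested gene in the 3 pathway lists, for the 4 stimulated groups. Filled points passed both thresholds, the short line is the list's median and the dotted line the median of all tested genes. At LPS 4 h 5 of 13 inhibitors rose and 1 fell, where 8.75% of all tested genes rose and 41.0% fell. At RANKL 3 d 5 of 12 complex genes fell and 0 rose, where 9.04% of all tested genes fell and 20.2% rose.

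The effect of scaling on the 10 genes is shown for LPS 4 h and RANKL 3 d against control. Elsewhere, centring left 3 of 6 calls between the stimuli at 4 h and 4 of 7 between the LPS times, and equal sums left 1 of 4 between the RANKL times. Centring on the median gene moved each log2 fold change at LPS 4 h upwards by about the shift of the median gene, and 3 genes called lower gave way to 3 others called higher. *Cd14*, *Irak2* and *Myd88* rose under each scaling. At RANKL 3 d *Myd88* was lower and *Ticam2* higher under each.

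**Figure D5:**
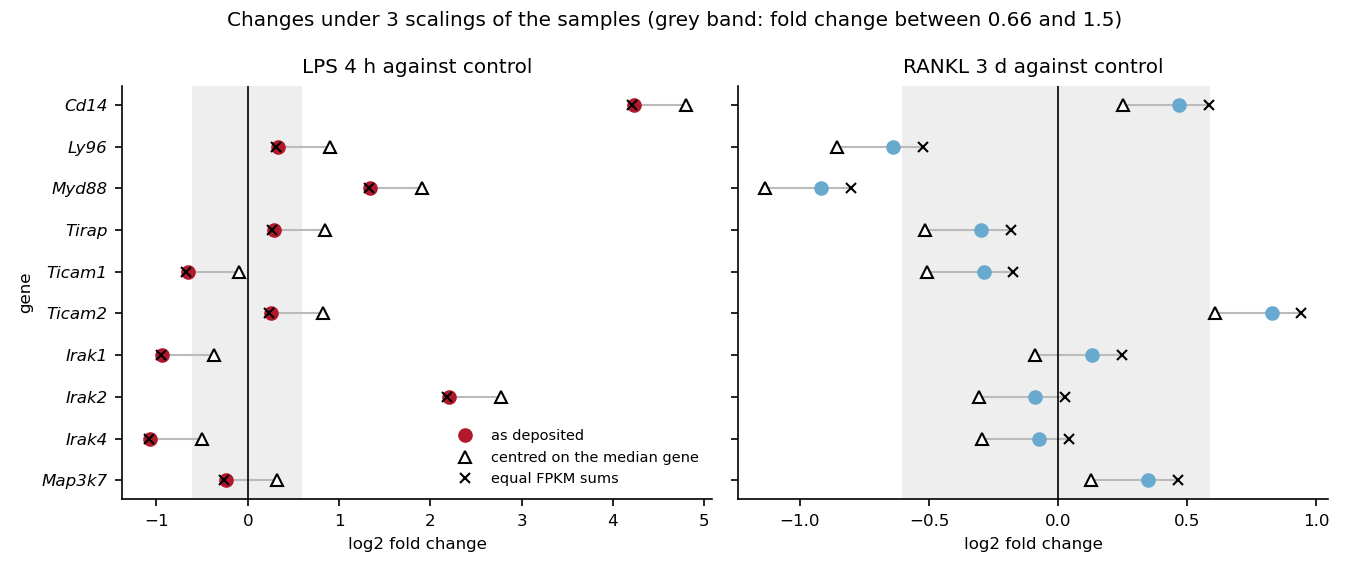
Log2 fold change of the 10 genes at LPS 4 h and RANKL 3 d against control under 3 scalings, namely FPKM as deposited (filled circles), samples centred on the median gene (triangles) and FPKM rescaled to equal sums (crosses). The grey band spans fold changes between 0.66 and 1.5. At LPS 4 h *Irak1* (-0.93 as deposited and -0.37 centred) and *Irak4* moved into the band with centring.

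Some of the genes share their locus with others, which matters where fragments cannot be assigned by strand. By GENCODE M21 on GRCm38, *Myd88* lies on chromosome 9 from 119335934 to 119341411 on the minus strand and overlaps *Acaa1a* on the opposite strand, which stood at 38.0 FPKM in control and 39.1 at LPS 4 h. *Tirap* (chromosome 9, 35184551 to 35200291, minus strand) overlaps *Srpr* on the opposite strand, and *Ticam2*, on chromosome 18, shares its strand with *Tmed7*. Against control *Tmed7* had log2 fold changes of -0.34 at LPS 4 h, 0.30 at LPS 3 d, -0.02 at RANKL 4 h and 0.20 at RANKL 3 d. Its mean was 31.45 FPKM at LPS 4 h and 49.07 at LPS 3 d, so it was higher at the later time, as *Ticam2* was. Strand cannot separate fragments of *Tmed7* and *Ticam2*, and the part of *Tmed7* in the *Ticam2* values was not tested. *Srpr* and *Acaa1a* had log2 fold changes between -0.05 and 0.18 in the comparisons with control. None of these neighbours was called against control. *Irak4* (chromosome 15, 94543643 to 94581815, plus strand) overlaps *Twf1*, which was not analysed here. *Ly96* (chromosome 1, 16688051 to 16709611, plus strand), *Ticam1* (chromosome 17, 56269319 to 56276786, minus strand) and *Cd14* overlap no other annotated gene. *Irak2* (chromosome 6, 113638467 to 113695026, plus strand), *Irak1* (chromosome X, 74013914 to 74023918, minus strand) and *Map3k7* (chromosome 4, 31964097 to 32023467, plus strand) overlap only non-coding entries.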

How the data were processed

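RNA sequencing of 15 BMDM samples in 5 groups of 3 was analysed, with groups and replicate numbers taken from the sample labels. The authors deposited expression as FPKM in 1 table, made by their methods with StringTie and Ballgown, and the submitters' processing notes name StringTie, GRCm38.p4 and mm10. The aligner and the use of strand in counting are not given in the sources used here. The table runs in alphabetical order and breaks off within *Ttk*, so that *Ttk* and later genes are not analysed here. Of the 20089 genes listed, 4453 were at 0 in every sample. Each gene's FPKM moved in whole steps of 1 fragment, and the fragments could be recovered for 14485 genes, all those above 0 in 3 or more samples (tolerance 1e-04, 100.0% of values). The counting errors given cover counting only, since amplified fragments may be copies of 1 molecule.

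Log2(FPKM + 0.1) was fitted with limma 3.58.1 in R 4.3.3 (lmFit, eBayes with a trend) in 1 fit of the 5 groups, over the 11743 genes whose mean reached 0.1 FPKM, and p was adjusted by Benjamini-Hochberg. A fold change is on this scale and understates changes of low genes. The fold and p thresholds are those of the study, whose count model was not used. The main fit was made on the FPKM as deposited, and the recovered fragments were fitted only in the voom alternative. Standard errors are those of limma. The recovery and the fit were checked on simulated data. Alternatives were the pseudocount (1, 0.01), the filter (off, or a mean of 1 FPKM or more), the scaling (centred on the median gene, equal FPKM sums), the replicate block, only the 2 groups compared, limma voom on recovered fragments, the adjusted p and leaving out each library. The genes and lists were chosen with earlier results of these data known. All 10 genes were named, and from each list up to 3 called genes per comparison with the largest change and a mean of at least 1 FPKM, with further list genes named after their values were seen. The ratios and their runs without each library were added after seeing the data.

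Same-numbered samples deviated together, with every pair's correlation above 0.1, in the 5 comparisons among Control, LPS 4 h, RANKL 4 h and RANKL 3 d (lowest 0.14), but not in those with LPS 3 d (lowest -0.23). The labels do not say what a number shares. The median squared deviation between replicates of a group was 6.75 to 48.8 times that of repeat sampling, so none was 1 library sequenced again. This does not show that replicates came from separate animals or cultures. Gene positions are those of GENCODE M21, and promoters those of RefSeq. Python 3.11.15 with numpy 2.4.6, pandas 2.3.3, scipy 1.17.1 and matplotlib 3.10.9 was used outside R.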

Additional observations from a re-analysis of the deposited data

Results flagged for a closer look

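The difference between the times passed the thresholds for 7 of the 10 genes with LPS and 4 with RANKL, by a test of the difference itself, where 59.3% and 28.3% of all tested genes did. The counts are thus near those of genes in general. These genes are listed because the difference between the times was called, and some of the calls depended on the scaling or on single libraries. From LPS 4 h to LPS 3 d the log2 differences were -1.34 for *Cd14*, -1.29 for *Myd88*, -1.09 for *Irak2*, 1.24 for *Irak1*, 1.10 for *Irak4*, 0.73 for *Ticam2* and 0.63 for *Map3k7*. From RANKL 4 h to RANKL 3 d they were 0.91 for *Ticam2*, -0.70 for *Irak2*, -0.67 for *Ly96* and -0.62 for *Myd88*. *Myd88*, *Irak2* and *Ticam2* were listed with both stimuli, with the same sign in each. With samples centred on the median gene, *Irak4* (0.45) and *Ticam2* (0.08) were no longer called between the LPS times, and *Map3k7* was at -0.017. At equal FPKM sums *Irak2* (-0.58), *Ly96* (-0.55) and *Myd88* (-0.51) were no longer called between the RANKL times. The comparisons of LPS and of RANKL with time do not share samples, but they are not independent. Same-numbered LPS 4 h and RANKL 4 h samples deviated together, with correlations of 0.69, 0.67 and 0.55. The share of all genes called in both with the same sign is not given here. Because no group had M-CSF alone for the longer time, the stimulus and the time in culture cannot be told apart here. *Ticam2* was higher at the later time with either stimulus, in every sample of both.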

How the results depend on the processing

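Of 34 called values of the 10 genes in the 8 comparisons, 20 kept their direction and call in each of 25 alternatives. Centring on the median gene ended 9 calls and made 7, equal FPKM sums ended 4 and made 1, and a pseudocount of 1 ended 2. The 1 called value that changed sign was that of *Map3k7* between LPS 4 h and LPS 3 d, -0.017 under centring. At equal FPKM sums the count between the RANKL times was 1 in place of 4, and with the adjusted p the count at RANKL 4 h was 0 in place of 1. Leaving out 1 library ended 8 calls and made 2. The counts ranged from 5 to 6 at LPS 4 h, 3 to 4 at LPS 3 d, 0 to 1 at RANKL 4 h and 2 to 3 at RANKL 3 d against control, from 6 to 8 between the LPS times, 2 to 4 between the RANKL times and 5 to 6 at 4 h between the stimuli, and stayed at 4 at 3 days. Of 600 list counts 27 moved by over 1.5 times, 16 of them without 1 library, and 15 of the 27 were at RANKL 4 h against control, where the counts were 0 to 2. Of 250 mean levels 22 moved by over 1 SD, all with another scaling. No mean ratio did, but none could have. Leaving out 1 of 3 samples shifts a mean by less than 1 SD, and scaling cannot change a ratio within a sample. For the mean levels too, only another scaling could pass 1 SD. The cause of the changed calls, counts and levels was not tested.

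The replicate block changed none of the calls of the 10 genes, with counts of 6, 3, 1 and 3 against control, and made 1 further call among the inhibitors at RANKL 4 h, *Socs1* (-0.95). No alternative was left out. Depth limited these genes little, and the 3 samples a group limited them more, since a two-sided exact permutation test cannot give p below 0.1.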
